A study of Drosophila melanogaster with 7 samples.

Results

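The translation elongation factors of Drosophila were described at the RNA level in primary neuron cultures. The 7 members were the genes listed under the symbols eEF1alpha1, eEF1alpha2, eEF1beta, eEF1gamma, eEF1delta, eEF2 and eEF5, out of 17753 genes in the count table. The genes were chosen by symbol, but the family was put forward with the CPM levels in these same libraries already known. The levels are therefore given as a description, without a test.

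Elongation factors drive the cycle by which the ribosome adds amino acids to a growing protein. eEF1A, made from eEF1alpha1 and eEF1alpha2, binds GTP and carries aminoacyl-tRNA to the ribosome. The eEF1B complex reloads eEF1A with GTP, with beta and delta as the exchange subunits and gamma as a scaffold. eEF2 is the GTPase that moves the ribosome along the mRNA by 1 codon, and eEF5, the fly form of eIF5A, assists peptide bond formation where ribosomes stall, for example on runs of proline. In mammals, the second eEF1A gene is used mainly in neurons and muscle, where it replaces the first.

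Total RNA of 7 control cultures was sequenced, all of the w1118 strain and untreated. Each culture was made from the central nervous systems of 3 third-instar larvae, with both sexes used, dissociated and kept for 7 days in vitro. The cultures were therefore pools of animals and held all cell types that survived dissociation, and fewer cells of a type could not be told apart from less RNA per cell. No other condition was analysed here, and nothing in the labels tied a library to a batch or to a numbered replicate. The libraries are named A to G in ascending order of their total counts, which ranged from 21178515 in A to 33891136 in G. Levels are given as CPM, the counts of a gene per 1000000 counts of its library, and SDs are over the 7 libraries.

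All 9 neuronal markers were detected, with a summed level of 6766 to 9158 CPM, against 124 to 188 CPM for 7 glial markers and 233 to 312 CPM for 8 markers of neuroblasts and dividing cells. Of the neuronal sum, futsch alone was 3421 to 4761 CPM. The sums were not divided by gene length, so they do not give the proportions of cell types. Library D stood apart in the markers of other tissues. It held 1351 CPM of 11 photoreceptor genes, 742 CPM of 3 yolk protein genes and 575 CPM of 4 fat body genes. The other libraries held 107 to 335, 24.6 to 239 and 47.7 to 172 CPM. Of the fat body sum in D, 558 CPM was apolpp. Lsp1beta was also highest in D, but Lsp2 was highest in B and Fbp1 in E. Markers of muscle, at 174 CPM, and of hemocytes, at 109.9 CPM, were also highest in D. Library G was next for the photoreceptor and yolk protein genes. No library was a copy of another. The chi-square per degree of freedom lay between 18.7 and 74.1 over the 21 pairs of libraries.

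All 7 elongation factors were detected, that is, had at least 10 counts in every library, as did 53.4% of the genes listed. The lowest count of any member was 783 and the highest was 167545. Together the family took 1.40% ± 0.0836 of all counts, or 13988 ± 836 CPM. The share was 1.37, 1.48, 1.37, 1.41, 1.53, 1.30 and 1.33% in libraries A to G. It was highest in E and lowest in F, and its coefficient of variation (CV, the SD over the mean) was 5.98%. eEF1alpha1 and eEF2 alone took 1.04% ± 0.0780 of all counts. Members at 1000 CPM or more numbered 3 of 7, eEF1alpha1, eEF2 and eEF1alpha2, beside 0.468% of all genes, or 83.

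eEF1alpha1 (FBgn0284245) was the most abundant member. The gene lies on the plus strand of 2R at 11891135-11895762 (BDGP6.54), with 4 annotated transcripts and 2464 bases of exon, of which 1389 are the coding length. Its level was 5129, 5637, 5113, 5162, 5735, 4718 and 4875 CPM in libraries A to G, with a mean of 5196 ± 372 CPM. Libraries B and E were high and F and G low, and the highest value was 1.22 times the lowest. The mean ranked 4 among the 9476 detected genes, and the rank stayed between 4 and 6 in every library.

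eEF1alpha2 (FBgn0000557) encodes the other form of eEF1A. It lies on the plus strand of 3R at 31738468-31743306, with 4 transcripts, 2656 bases of exon and a coding length of 1386 bases. The level was 2181, 2189, 2081, 2363, 2204, 2077 and 2305 CPM in libraries A to G, and the mean was 2200.2 ± 106 CPM. This was the steadiest member by CV, at 4.82%, and it ranked 21 among detected genes. Its highest libraries, D and G, were also those with the most RNA of photoreceptor and yolk protein genes, whose part in these values was not tested. Without library D the mean was 2173 ± 85.4 CPM.

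The beta, delta and gamma subunits of the eEF1B complex were all lower than the eEF1A genes. eEF1beta (FBgn0028737; plus strand of 2R, 16868222-16869280) has 2 transcripts, 960 bases of exon and a coding length of 666 bases. It was measured at 172, 206, 196, 221, 215, 224 and 201.3 CPM in libraries A to G, with a mean of 205 ± 17.7 CPM. Library A was low and D and F were high, a range of 1.30 times. The mean ranked 983 among detected genes.

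eEF1gamma (FBgn0029176), the scaffold subunit, has 3 transcripts and lies on the plus strand of 3R at 29220172-29222109, with 1695 bases of exon and a coding length of 1293 bases. Its level was 659, 799, 721, 791, 803, 759 and 765 CPM in the same order of libraries. Library A was again the lowest. The mean of 757 ± 51.6 CPM ranked 135, and its CV of 6.82% fell to 4.04% without A.

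eEF1delta (FBgn0032198), the other exchange subunit, was the least abundant member. It lies on the plus strand of 2L at 10232507-10234450 and has 2 transcripts, 928 bases of exon and a coding length of 768 bases. Values were 38.8, 34.6, 30.5, 37.0, 40.5, 32.0 and 26.1 CPM in libraries A to G, with a mean of 34.2 ± 5.05 CPM. Libraries A and E were high and G was low, and the highest value was 1.55 times the lowest, the widest range of the 7 members. The mean ranked 4064 among detected genes.

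eEF2 (FBgn0000559), the translocation factor, was nearly level with eEF1alpha1 in CPM. The gene lies on the minus strand of 2L at 21677913-21682164, with 3 transcripts, 3056 bases of exon and a coding length of 2532 bases. Libraries A to G held 5109, 5516, 5184, 5082, 5871, 4775 and 4657 CPM, with a mean of 5171 ± 417 CPM at rank 5. As for eEF1alpha1, E and B were the highest libraries and F and G the lowest.

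eEF5 (FBgn0285952) was measured at 426, 438, 403, 417, 466, 405 and 421 CPM in libraries A to G. It lies on the plus strand of 2R at 24057798-24059483 and has 2 transcripts, 807 bases of exon and a coding length of 477 bases. The mean was 425 ± 21.7 CPM, at rank 354. Library E was high, and the CV of 5.10% fell to 3.15% without it.

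**Figure D1:**
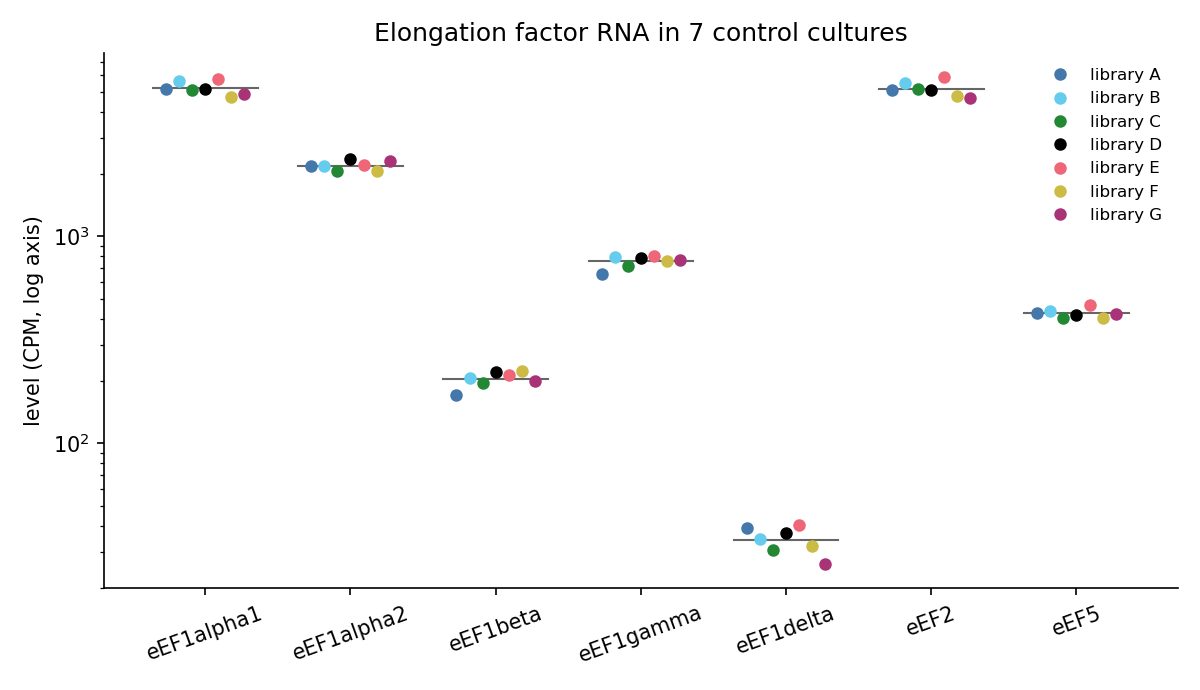
Level of each of the 7 elongation factors in CPM on a log axis, with 1 point per library (A to G) and a bar at the mean over 7 libraries. eEF1alpha1 and eEF2 lie together at 4657 to 5871 CPM, eEF1delta lies lowest at 26.1 to 40.5 CPM, and each member keeps to a narrow band.

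To compare levels between genes, CPM was divided by the kilobases of annotated exon. On this scale eEF1alpha1 stood at 2109 ± 151 CPM per kilobase, eEF2 at 1692 ± 136 and eEF1alpha2 at 828 ± 39.9. eEF5 followed at 527 ± 26.9, eEF1gamma at 446 ± 30.4, eEF1beta at 213 ± 18.5 and eEF1delta at 36.9 ± 5.44 CPM per kilobase. Every library gave the members in this order. The median over detected genes was 12.5 CPM per kilobase, and by this measure eEF1alpha1 ranked 10 and eEF2 ranked 14 among the 9403 genes with a length. The lower members ranked nearer the top than in CPM, except eEF1alpha2 at 42, with eEF5 at 76, eEF1gamma at 104, eEF1beta at 207 and eEF1delta at 1750.

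The step between neighbours in the order was uneven. eEF1alpha1 and eEF2 were the only neighbours with overlapping ranges, 1915 to 2328 against 1524 to 1921 CPM per kilobase, although eEF1alpha1 was the higher in 7 of 7 libraries. The means differed by 1.25 times between eEF1alpha1 and eEF2, by 2.04 times between eEF2 and eEF1alpha2, and by 1.57 times between eEF1alpha2 and eEF5. Then eEF5 exceeded eEF1gamma by 1.18 times and eEF1gamma exceeded eEF1beta by 2.09 times. The last step was the largest, with eEF1beta at 5.79 times the level of eEF1delta. Division by the coding length, 3741 CPM per kilobase for eEF1alpha1 and 2042 for eEF2, kept the order.

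**Figure D2:**
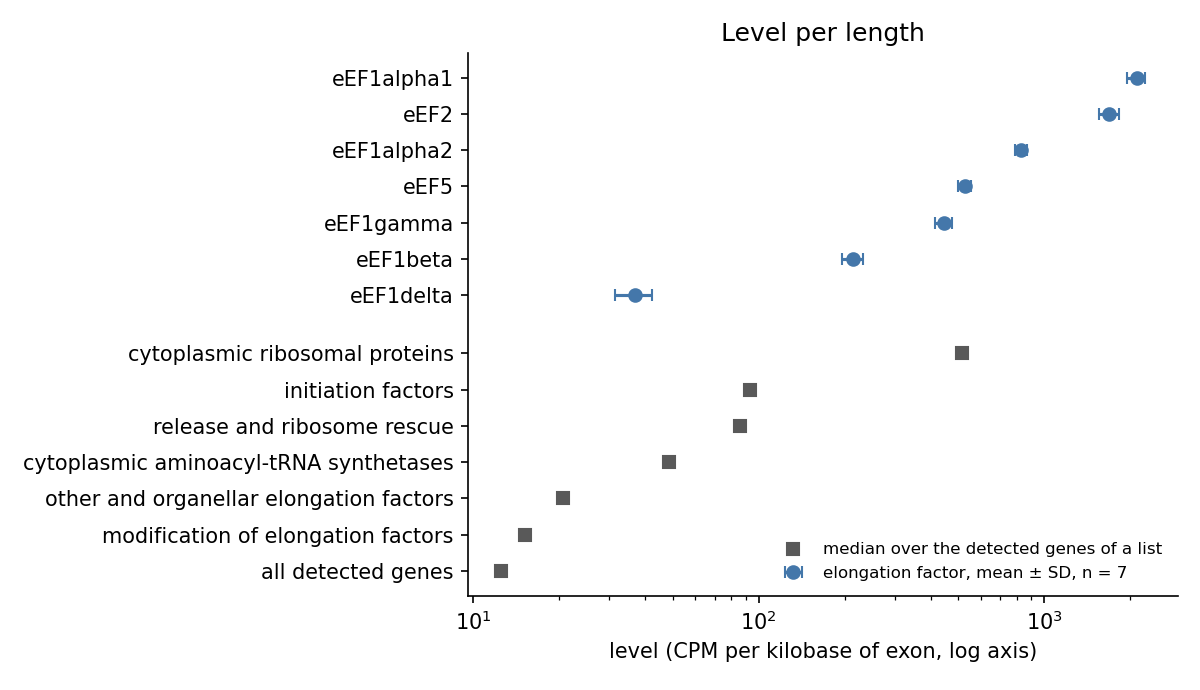
Level in CPM per kilobase of exon (log x axis), with the 7 elongation factors as circles (mean, bars of 1 SD over 7 libraries) and the medians over detected genes of 6 related gene lists and of all detected genes as squares. The members descend from 2109 to 36.9 CPM per kilobase, the ribosomal protein genes have a median of 515, the other lists lie between 15.2 and 93.3, and all detected genes have a median of 12.5.

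Ratios between members within a library do not depend on the library total. Per kilobase, eEF1alpha1 was 2.55 ± 0.203 times eEF1alpha2, from 2.28 in library G to 2.80 in E. eEF1alpha2 thus made up 28.3% ± 1.62 of the 2 eEF1A genes, between 26.3 and 30.5%. These are closely similar paralogs, and no source used here states how reads that fit both were counted, which leaves the split between them uncertain.

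The ratio of eEF1alpha1 to eEF2 was the most even of the ratios between members given here. It was 1.25 ± 0.0302 per kilobase, with the lowest value, 1.21, in E and the highest, 1.30, in G. In CPM the ratio was 1.01 ± 0.0244 and its highest value was 1.07 times its lowest, while each gene alone ranged over 1.22 and 1.26 times. With both eEF1A genes summed, the ratio to eEF2 was 1.74 ± 0.0731.

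The eEF1B subunits were unequal. Per kilobase, eEF1alpha1 was 4.74 ± 0.375 times eEF1gamma, 9.94 ± 1.12 times eEF1beta and 58.0 ± 7.25 times eEF1delta. The eEF1A genes together exceeded the 2 exchange subunits together by 11.8 ± 0.977 times, from 10.1 to 13.1. eEF1gamma was 2.10 ± 0.0959 times eEF1beta in a narrow range of 1.92 to 2.20. eEF1beta to eEF1delta was the widest ratio, 5.91 ± 1.04, and ran from 4.29 in library A to 7.45 in G. eEF1alpha1 was 4.00 ± 0.160 times eEF5.

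The members did not all rise and fall in the same libraries. Likeness was measured as a proportionality coefficient of log2(CPM + 1) over the 7 libraries, which is 1 for a constant ratio. It is a description over libraries that share a total, and no p is given. Of the 21 pairs of members, eEF1alpha1 and eEF2 were the most alike at 0.949, and the coefficient stayed between 0.931 and 0.969 under every other scaling, pseudocount and choice of libraries tried. eEF1alpha1 and eEF5 reached 0.786, or 0.586 without library E, where eEF1alpha1, eEF2 and eEF5 were all highest. The scaffold and exchange subunits eEF1gamma and eEF1beta reached 0.834, which rested in part on library A, where both were lowest, and fell to 0.489 without it. The coefficient was -0.0449 for the 2 exchange subunits and 0.131 for the 2 eEF1A genes. The lowest value, -0.0648, was that of eEF1alpha2 and eEF2.

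**Figure D3:**
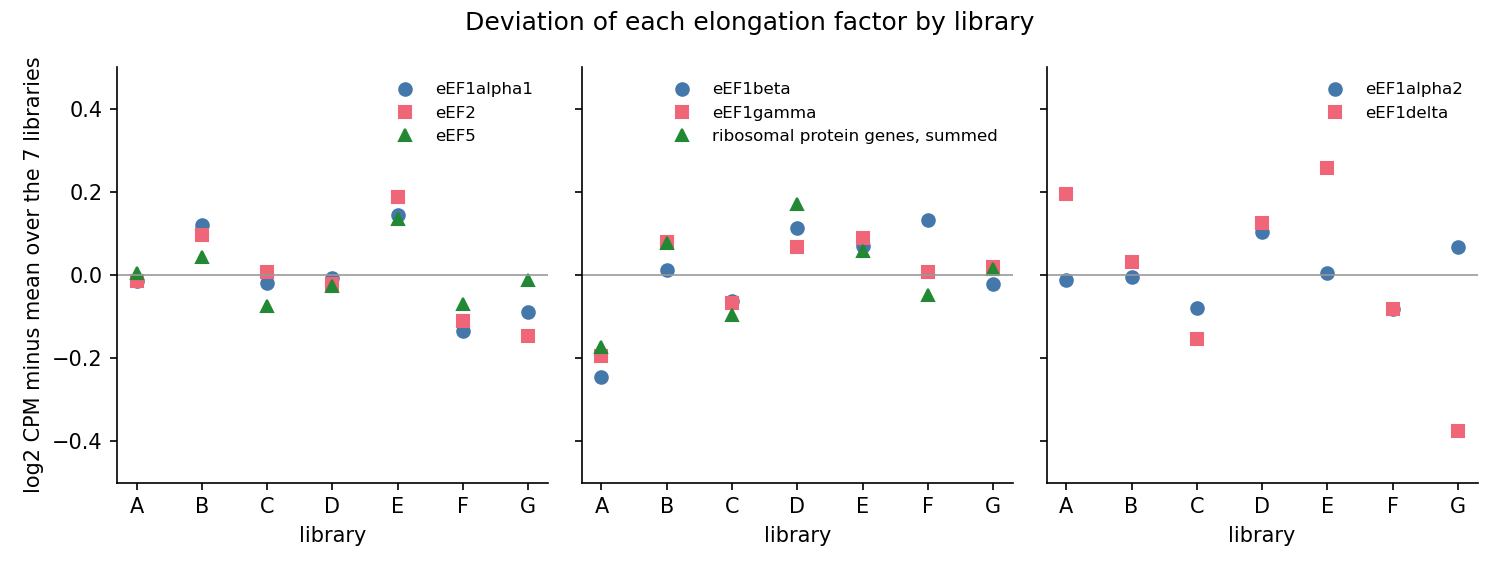
Difference of log2 CPM from the mean over 7 libraries (y axis) in libraries A to G (x axis), with members grouped into panels after their values were seen and the summed ribosomal protein genes in the middle panel. eEF1alpha1, eEF2 and eEF5 share a peak in library E, eEF1beta and eEF1gamma share a low in A, and eEF1delta spans from 0.26 in E to -0.38 in G.

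Library E was the highest for eEF1alpha1, eEF1gamma, eEF1delta, eEF2 and eEF5, library D for eEF1alpha2 and library F for eEF1beta. The share of all detected genes that were highest in E was not determined, so this is not read as a trait of the family. Library E also had the lowest sum of neuronal markers, 6766 CPM, and the highest sum of markers of neuroblasts and dividing cells, 312 CPM. PCNA alone was 239 CPM of this sum and, with stg, was highest in E. By contrast dpn, mira, ase and wor were highest in F, grh in D and CycE in B. The part of these marker differences in the levels of the members was not tested.

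Ribosomal protein genes gave a second scale for the family, since ribosomes are what elongation factors serve. Their sum over 88 detected genes was 41710, 49637, 43999, 52966, 48941, 45476 and 47502 CPM in libraries A to G. It was lowest in A and highest in D. Per 1000 CPM of ribosomal protein genes, eEF1gamma was 16.1 ± 0.572, between 14.9 in D and 16.7 in F, the narrowest range of any member at 1.12 times. eEF1beta was 4.35 ± 0.282 on this scale, at 4.13 to 4.45 in 6 libraries and 4.93 in F. eEF1alpha1, at 111 ± 9.31, and eEF2, at 110.1 ± 10.7, were both lowest in D and highest in A, with ranges of 1.26 and 1.28 times. eEF1delta varied most, from 0.550 in G to 0.931 in A.

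The spread of the members between cultures was small in most cases. The CV was below the median over detected genes, 14.1%, for 6 of the 7 members, and was 14.8% for eEF1delta. The median CV of detected genes differed with level, so genes of like level are the closer comparison. In the 473 most abundant genes the median CV was 8.41%, and the 5 members among them had CVs of 4.82% (eEF1alpha2), 5.10% (eEF5), 6.82% (eEF1gamma), 7.15% (eEF1alpha1) and 8.06% (eEF2). Of these, eEF1alpha2 and eEF5 lay below 5.27%, the 10th percentile of that group. eEF1beta, at 8.65%, and eEF1delta, at 14.8%, lay above the medians of genes of their own levels, 8.10 and 11.7%. The CV of eEF1beta was 5.35% without A, its lowest library, and that of eEF1delta 10.99% without G, its lowest. Leaving out an extreme value tends to lower the CV of any gene, and the medians were over all 7 libraries. These values therefore do not show whether the place above the median rested on 1 library. Counting error alone would give a CV of 0.267% for eEF1alpha1 and 3.30% for eEF1delta, which is a small part of either CV.

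The biological coefficient of variation (BCV) fitted by edgeR estimates the spread beyond counting error. Each value is pulled toward a trend over detected genes, so it is not the spread of 1 gene alone. For eEF5 the fitted value exceeded the whole CV, 5.10%. The BCV was below the trend at their level for 7 of 7 members, as for 72.9% of detected genes. It was lowest for eEF5, 0.0853 against a trend of 0.106, and highest for eEF1delta, 0.140 against 0.148. Without library D it was below the trend for 5 of 7, and eEF1beta and eEF1delta were then above it. No member (0 of 7) had 1 library apart from the others by the 95% limit of Dixon's gap test, which was passed by 6.72% of detected genes.

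**Figure D4:**
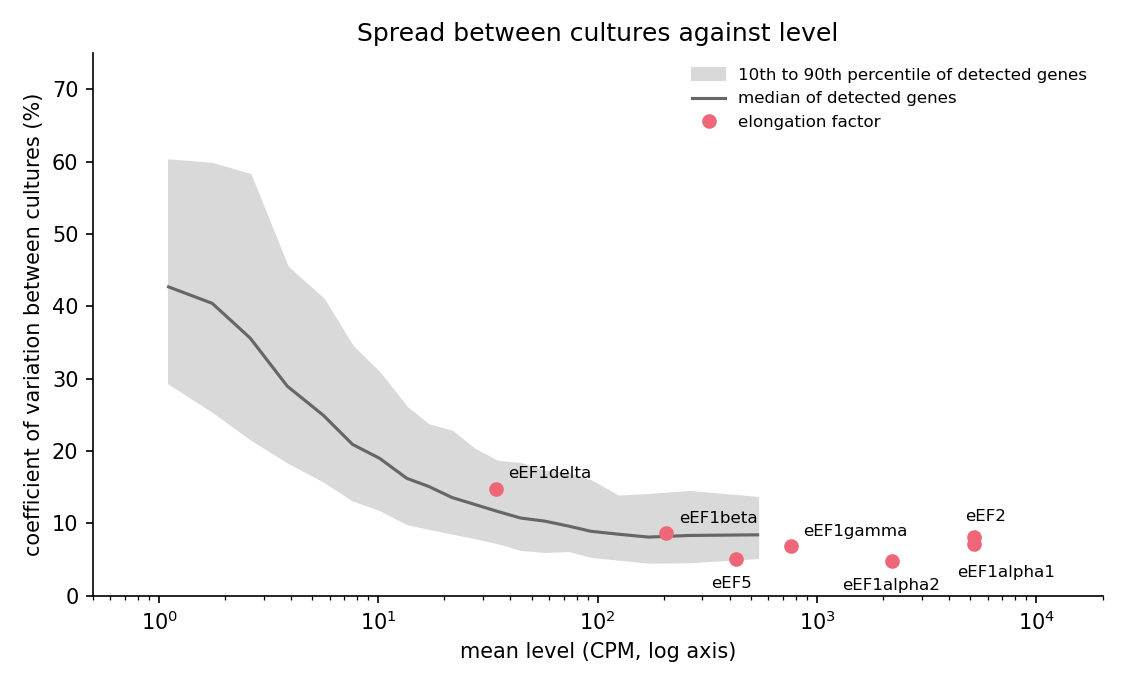
CV between the 7 cultures (percent, y axis) against mean level (CPM, log x axis), with the 7 elongation factors as points, and the median and the 10th to 90th percentiles of detected genes binned by level as a line and a band. The median CV falls with level down to 8.10% in the bin of eEF1beta and is 8.41% in the highest bin, and 5 of the 7 members lie below the line or its level at the right end, 8.41%.

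The other genes of translation were given by lists chosen with earlier results known. For comparison, the 7 elongation factors had a median of 757 CPM and 527 CPM per kilobase, and all detected genes 24.1 CPM and 12.5 CPM per kilobase. Of 93 cytoplasmic ribosomal protein genes 88 were detected, with a median of 507 CPM and 515 CPM per kilobase. They ran from RpLP1, a protein of the ribosomal stalk that binds elongation factors, at 1603 ± 164 CPM, down to RpS19b at 3.13 ± 0.702 CPM. Per kilobase, 1 ribosomal protein gene was above eEF1alpha1 and 2 were above eEF2. These were RpL41, at 2943 CPM per kilobase, and RpLP1, at 2087, with RpL41 named after its value was seen. By contrast 76 were above eEF1beta and 82 above eEF1delta.

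Initiation factors, which bring the ribosome to the start codon, were lower. Of 44 genes 37 were detected, with a median of 132 CPM and 93.3 CPM per kilobase. eIF4A, the RNA helicase of initiation, was highest at 1401 ± 108 CPM, and eIF3f2 was lowest at 1.09 ± 0.565 CPM. The 5 genes of release and ribosome rescue were all detected, with a median of 245 CPM, from eRF1, which reads stop codons, at 268 ± 14.7 CPM to pelo, a rescue factor for stalled ribosomes, at 35.99 ± 2.26 CPM. The 20 cytoplasmic aminoacyl-tRNA synthetases, which charge the tRNA that eEF1A carries, had a median of 151 CPM, from AlaRS at 485 ± 63.5 CPM to ArgRS at 29.0 ± 2.65 CPM.

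Genes that modify the elongation factors were expressed at much lower levels than their substrates. eEF2 carries diphthamide, a modified histidine, and eEF5 carries hypusine, a modified lysine. All 8 genes of this list were detected, with a median of 19.7 CPM and 15.2 CPM per kilobase. Among genes of diphthamide synthesis, Dph5 was at 74.3 ± 9.54 CPM, Dph1 at 53.2 ± 8.92, Dph2 at 21.2 ± 3.04 and Dph4 at 5.32 ± 1.13. The hypusine enzymes were nero, the hydroxylase, at 18.1 ± 2.44 CPM, and Dhps, the deoxyhypusine synthase, at 13.4 ± 1.72 CPM. CG12817 was at 24.6 ± 3.87 and CG14882 at 10.002 ± 1.38 CPM.

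Other elongation factors were also low. Those of mitochondria, which serve the separate ribosomes of that organelle, were mEFTu1 at 146 ± 8.65 CPM, mEFTs at 42.7 ± 3.87, mEFG1 at 25.6 ± 1.61 and mEFTu2 at 22.7 ± 4.38 CPM. CG33158 was at 104 ± 10.9 CPM. eEFSec, the factor for selenocysteine, was at 3.41 ± 1.27 CPM. For waw, the mitochondrial LepA-type factor, 0 counts were listed in all 7 libraries. All of its 5450 exon bases overlap bbx on the same strand, so reads of waw could have been left unassigned, and its 0 does not bear on expression.

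Genes of like pattern were sought among the 6423 other genes with a mean of at least 10 CPM, and the 3 with the highest proportionality coefficient over 7 libraries were named for each member. For eEF1alpha1 they were eIF4A (0.969), the dynein light chain robl (0.953) and eEF2 (0.949). The ratio of eEF1alpha1 to eIF4A stayed between 3.61 and 3.78 in CPM. For eEF2 they were Opa1, a GTPase of mitochondrial fusion (0.974), RpL10, a large-subunit ribosomal protein (0.973), and Taf6, a subunit of TFIID (0.972).

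The eEF1B subunits gave different neighbours. For eEF1gamma they were all ribosomal protein genes, RpLP0 (0.968), RpS16 (0.955) and RpS7 (0.948), and the ratio of eEF1gamma to RpLP0 was 0.611 to 0.645 in CPM. For eEF1beta they were RpS16 (0.925), the complex I subunit ND-PDSW (0.921) and the complex III subunit Cyt-c1 (0.915). For eEF1delta they were Spindly, an adaptor of dynein (0.965), CG18870 (0.949) and the galactokinase Galk (0.940).

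For eEF1alpha2 the 3 were the palmitoyltransferase Dnz1 (0.919), CG33170 (0.918) and the mitochondrial phosphate carrier Mpcp2 (0.847). eEF5 had Pgk, an enzyme of glycolysis (0.926), Fer1HCH, the ferritin heavy chain (0.914), and the initiation factor subunit eIF3b (0.907). Genes with a coefficient above 0.9 numbered between 2 (eEF1alpha2) and 21 (eEF2) of the 6423, and the named genes changed with the libraries used.

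Over the 84 ribosomal protein genes compared, the median coefficient was 0.796 for eEF1gamma and 0.673 for eEF1beta, beside -0.119 and -0.134 over all genes compared. For the other members it was 0.435 (eEF1alpha2), 0.3003 (eEF1alpha1), 0.238 (eEF5), 0.192 (eEF2) and 0.0859 (eEF1delta). Only for eEF1delta was it below that over all genes, 0.192. Ribosomal protein genes with a coefficient above 0.9 numbered 9 for eEF1gamma, 2 each for eEF1beta and eEF1alpha1, 1 for eEF2 and 0 for the other 3 members, of 84 in each case. Over all genes compared, the share above 0.9 was 0.187% for eEF1gamma, 0.0934% for eEF1beta, 0.218% for eEF1alpha1 and 0.327% for eEF2. Library A was the lowest for eEF1gamma, eEF1beta and the summed ribosomal protein genes. These medians and counts were not determined with a library left out, so how far they rest on A is not known.

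Neighbouring transcripts could add few reads. eEF1alpha1 overlaps snoRNA:Me28S-A1322, at 47 to 126 counts, and eEF2 overlaps sncRNA:254, at 217 to 378 counts, with 0 exon bases shared in either case. eEF5 shares 7 exon bases with lncRNA:CR44814 on the opposite strand, which had 0 to 23 counts.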

How the data were processed

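RNA of 7 control cultures was measured. The authors deposited whole-number counts per gene, made with featureCounts without normalization or pooling. The submitters' processing notes name dm6. The aligner, strand setting and annotation are named in no source used here, and the labels name an rRNA-depleted total RNA kit where the methods name an mRNA kit. The table holds 8 further columns of per-sample values that match no sample, and these were not used. Each column was assigned to the condition without a replicate number.

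CPM (counts per 1000000 counts of the library) were derived from the deposited counts, on library totals of 21178515 to 33891136. Positions and lengths came from BDGP6.54 (Ensembl release 115), which held 17626 of the 17753 identifiers, the other 127 staying in the totals. Arc1, the most abundant gene, took 13.5% of counts. A pseudocount of 1 CPM was used for log2 values, and 10 counts in every library for detection. BCVs were fitted over 9476 genes with edgeR 4.0.16 in R 4.3.3, with an intercept only and TMM normalization, and other values were computed with Python 3.11.15, numpy 2.4.6 and pandas 2.3.3. On simulated data, genes with a BCV of 0.3 came out at 0.152 and others with 0.1 at 0.107, so fitted BCVs are pulled to the trend. Of 200 proportional genes 91.5% were recovered.

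The members and lists were chosen with earlier results of these data known. The genes named were all members, the highest and lowest detected gene of each list, every gene of the modification and other-factor lists, the 3 genes most proportional to each member, and Arc1. A single condition leaves no groups to test. Nothing says that the cultures came from separate preparations, so the SDs cover the spread between these samples, which may in part be technical. The alternatives were TMM and DESeq2 1.42.0 scaling, totals without Arc1, other lengths, other count filters, a pseudocount of 0.1 CPM and each library left out in turn. No sequence was used.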

Additional observations from a re-analysis of the deposited data

Results flagged for a closer look

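Of 36 measures checked for a library apart from the other 6, 6 were so. The limit used is set to pass about 1 in 20 by chance, and 6.72% of detected genes passed it. The measures are not independent, with 5 of the 6 in library D, so their number cannot be compared with that rate. eEF1beta per 1000 CPM of ribosomal protein genes was 4.93 in library F and 4.13 to 4.45 in the others. The other 5 were all in library D, with summed levels of 1351 CPM for photoreceptor genes and 742 CPM for yolk protein genes. Fat body genes summed to 575 CPM there, 558 CPM of it apolpp. Muscle genes summed to 174 CPM and hemocyte genes to 109.9 CPM. Among the 7 elongation factors themselves, library D was the highest only for eEF1alpha2.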

How the results depend on the processing

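No paired analysis was possible because the 7 libraries form a single group. With Arc1 left out of the totals, mean levels rose to 6004 CPM (eEF1alpha1), 2544 (eEF1alpha2), 237 (eEF1beta), 875 (eEF1gamma), 39.5 (eEF1delta), 5975 (eEF2) and 491 (eEF5), and the sum to 16166 CPM. In CPM, without a length, the ratio of eEF1alpha1 was 1.01 to eEF2, 25.5 to eEF1beta, 6.88 to eEF1gamma, 154 to eEF1delta and 12.2 to eEF5, and that of eEF1gamma to eEF1beta was 3.70. Per kilobase of exon these were 1.25, 9.94, 4.74, 58.0, 4.00 and 2.10. Per kilobase of coding length they were 1.83 to eEF2, 12.2 to eEF1beta, 85.1 to eEF1delta, 4.19 to eEF5 and 1.91 for eEF1gamma to eEF1beta. The order per kilobase held for 7 of 7 members under each scaling, length and library left out. Leaving out a library moved the summed level between 13763 and 14154 CPM, and kept 0 to 3 of the 3 genes most like a member, against 2 to 3 under other scalings or the other pseudocount. The CV was below the median of detected genes for 6 to 7 members. Of the remaining values, 164 main and 191 secondary ones were counted as unmoved, and 53 secondary ones as moved. For levels and ratios the limit was the spread between libraries. Ranks, CVs and numbers of genes have no such spread and were sorted by other limits. Among the 53 moved values was the CV of eEF1gamma, which fell from 6.82 to 4.04% without library A.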
